A study of Mus musculus with 6 samples.

Results

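The snoRNAs (small nucleolar RNAs) in introns of Rpl13a, the gene of a protein of the large ribosomal subunit, were measured in mouse bone marrow cells of 2 genotypes. They are Snord32a, Snord33, Snord34 and Snord35a, chosen by their position in the host gene on chromosome 7 (GRCm38) and found by matching the deposited chromosome, start and end to GENCODE genes of these names. All 4 were present, out of 1823 features listed in at least 1 library. The KO group carried the genotype labelled Mat KO, read here as a mutation inherited through the mother, and the WT group was labelled wildtype. There were 3 KO and 3 WT libraries. The design text names Lin- cells, the bone marrow fraction depleted of mature blood cells. The title of the series names the imprinted Dlk1-Gtl2 locus. The sources used here give neither strain nor age nor the deleted segment, and do not say whether each library came from 1 animal. The spread behind each p-value is therefore one between libraries and could be technical.

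A snoRNA of the C/D type carries the short sequence boxes C and D, binds a set of core proteins that includes the methyltransferase fibrillarin, and guides 2′-O-methylation of the RNA base that pairs with the fifth nucleotide upstream of box D or of an internal copy of it. Most such snoRNAs of mammals are cut out of spliced introns, so their supply depends on transcription and splicing of the host gene. The human counterparts of Snord32a and Snord33 guide methylation of nearby bases of 18S rRNA, and those of Snord34 and Snord35a guide methylation of 28S rRNA. The Rpl13a snoRNAs are also known from work in hamster and mouse cells on lipotoxic and oxidative stress, where they accumulate in the cytosol and where loss of the host intron snoRNAs protects cells from saturated fatty acids.

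The sequences of the 4 snoRNAs are shown because they carry the guides. They are given 5′ to 3′ as DNA letters of the minus strand (GENCODE M21 transcripts, GRCm38), with box C and box D in capitals. Snord32a occupies chr7:45127382-45127464, Snord33 chr7:45126864-45126947, Snord34 chr7:45126601-45126670 and Snord35a chr7:45126346-45126435.
Snord32a: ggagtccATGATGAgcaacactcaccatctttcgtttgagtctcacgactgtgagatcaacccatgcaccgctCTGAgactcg
Snord33: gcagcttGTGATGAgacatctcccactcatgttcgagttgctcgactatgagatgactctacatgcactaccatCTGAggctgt
Snord34: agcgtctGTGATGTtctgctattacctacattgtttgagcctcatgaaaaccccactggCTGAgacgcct
Snord35a: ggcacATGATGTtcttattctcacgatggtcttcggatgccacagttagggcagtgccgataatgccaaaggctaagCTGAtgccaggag
They are 83, 84, 70 and 90 nt long. Box C ended in A in Snord32a and Snord33 and in T in Snord34 and Snord35a. No other snoRNA gene of GENCODE reached 80% identity with any of them. Among features with reads, the nearest to Snord32a was Snord33, at 64.3%, and the nearest to Snord34 was Snord32a, at 59.0%. Snord35a had a closer match among features with reads than either of these, which is not reported here.

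The guides next to box D of Snord32a and Snord33 paired with the same stretch of rRNA. The sequence searched was the opposite strand of the 1849-nt transcript of an rRNA-type gene on chromosome 17, and the search was added after the annotation had been seen. It took the longest unbroken pairing, G-U pairs included, that began within 2 bases of box D. For the bases before box D, with those that paired in capitals, the result was as follows, beside the rRNA with the 2 bases opposite the fifth nucleotide upstream of each box D in capitals.
Snord32a, last bases through box D: caacCCATGCACCGCTctga
Snord33, last bases through box D: ctaCATGCACTACCATctga
rRNA, chr17:39847677-39847698 (GRCm38), plus strand: gtgggtggTgGtgcatggccgt
Snord32a paired over 12 bases and Snord33 over 13, each with 2 G-U pairs, and the bases at the guided position, a G for Snord32a and a T (U in RNA) for Snord33, lay 2 bases apart. Pairings as long as these were found in 17.9% and 13.7% of 168 other C/D-length snoRNA sequences with a box D at the same end, so the length alone does not set them apart. Snord34 and Snord35a paired over 7 and 8 bases, a length reached by 92.9% and 80.4% of the others. No 28S sequence was used here.

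The 4 snoRNAs sit in different introns of the principal Rpl13a transcript, which has 7 introns. Snord32a is in intron 2, Snord33 in intron 4, Snord34 in intron 5 and Snord35a in intron 6, each alone in its intron. Snord34 and Snord33 end 63 and 69 bases before the 3′ splice site, and Snord32a and Snord35a 107 and 108 bases before it. Over 35 other C/D-length snoRNAs (under 110 nt) in introns of ribosomal protein genes the median distance was 85 bases, with quartiles of 71.5 and 154.5 bases. At its 5′ end Snord33 overlaps the annotated miRNA precursor Mir5121 by 30 nt on the same strand. Mir5121 had 41 to 75 reads per library, or 0.187% to 0.38% of the reads of Snord33 in the same library. Reads left out of the counting as ambiguous cannot be seen here. No other listed feature overlapped a member on either strand, and none of the 4 belonged to a group of identical or overlapping copies.

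The whole series is described by a few facts. Total counts were 45398303 to 53299322 per library, and C/D-length snoRNAs took 92.7% to 94.98% of them. Values of single libraries are given in the order of replicates 1, 2 and 3 of each genotype. The 10 listed snoRNAs between Dlk1 and Dio3, the check on the genotype labels, had 3, 2 and 2 reads in the KO libraries, against 87, 106 and 94 reads in the WT libraries. Cell type could be checked only through reads on miRNA precursors. Mir223, a myeloid miRNA, had 13.5 to 21.1 CPM (the count scaled by the library total) in KO and 8.61 to 19.1 CPM in WT libraries, and all 4 general haematopoietic precursors were detected, with a sum of 16.1 to 39.5 CPM in KO and 13.98 to 26.7 CPM in WT libraries. The sums were 0.866 to 3.82 CPM in KO and 0.525 to 1.78 CPM in WT libraries for 3 of 3 stromal precursors, 0.846 to 1.68 and 0.657 to 1.18 CPM (KO and WT) for 2 of 3 erythroid ones listed, and 0.536 to 0.887 and 0.507 to 0.815 CPM (KO and WT) for 3 of 3 epithelial ones. Among neuronal precursors only Mir124a-3 was listed, at no more than 0.0206 CPM in KO and at 0 CPM in WT libraries. The level of Mir126a, a miRNA of stem cells and endothelium, was 5.65 to 17.4 CPM in KO and 0.544 to 5.40 CPM in WT libraries. That of lymphoid Mir150 was 4.002 to 6.09 CPM in KO and 0.694 to 3.19 CPM in WT libraries. For neither did the genotypes overlap, as for 15.2% of the 624 tested features. The part that cell make-up played in the values below was not tested. One library stood apart by length of RNA, on a length range chosen after values were seen. For tested features of 150 to 350 nt the median centred log2 level (log2 TMM-scaled CPM minus the feature's mean over the 6 libraries) was 0.04, -0.70 and -0.12 in the KO libraries, against 0.14, 0.12 and 0.26 in the WT libraries, KO replicate 2 being lowest.

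Snord34, whose human counterpart guides 28S methylation, was the most abundant of the 4. It had 2279.8, 1953 and 1939 CPM in the KO libraries, against 2190.1, 1781 and 2109 CPM in the WT libraries. The genotypes overlapped: KO replicates 2 and 3 lay above WT replicate 2, the lowest library, and below WT replicates 1 and 3. KO replicate 1 was highest. Its mean was 2057 ± 193 CPM in KO and 2027 ± 217 CPM in WT libraries (SD, n = 3 each).

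Snord32a, whose guide paired with the same rRNA stretch as that of Snord33, came second. It had 982, 988 and 911 CPM in the KO libraries, against 1037, 926 and 1155 CPM in the WT libraries. The WT libraries were more widely spread, and the KO values lay within or below their range. Its mean was 960.4 ± 43.1 CPM in KO and 1039 ± 115 CPM in WT libraries (SD, n = 3 each).

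Snord33, the partner on that rRNA stretch, had 478, 366 and 393 CPM in the KO libraries, against 461, 353 and 501 CPM in the WT libraries. The lowest and the highest library were both WT. Its mean was 412 ± 58 CPM in KO and 439 ± 77 CPM in WT libraries (SD, n = 3 each).

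Snord35a was far rarer than the rest. It had 714, 775 and 815 reads, or 14.7, 14.95 and 17.2 CPM, in the KO libraries, against 1204, 796 and 774 reads, or 22.6, 17.5 and 15.2 CPM, in the WT libraries. WT replicate 1 stood above the other libraries, and WT replicate 3 lay inside the KO range. Its mean was 15.6 ± 1.4 CPM in KO and 18.5 ± 3.8 CPM in WT libraries (SD, n = 3 each). The exact 95% Poisson interval of its WT replicate 1 level was 21.3 to 23.9 CPM and that of WT replicate 3 was 14.2 to 16.4 CPM. The spread within WT thus exceeded the counting error of reads. This interval and the others cover only that error. They do not give the error of counted molecules, because amplified reads lacking molecular identifiers do not each stand for 1 molecule.

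**Figure D1:**
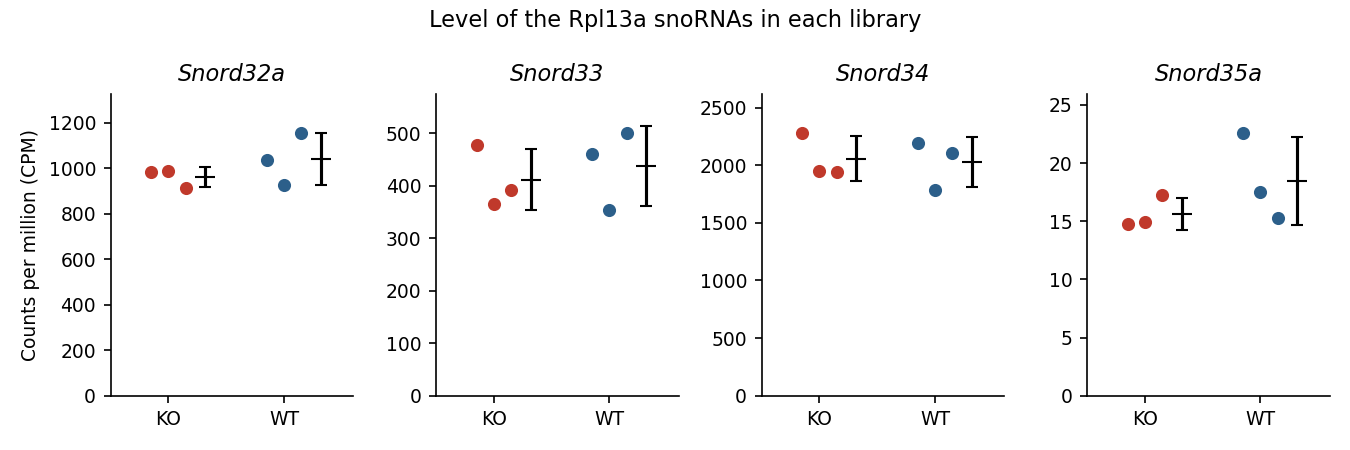
Level of each Rpl13a snoRNA in CPM (linear axis from 0, a separate scale for each snoRNA) in the KO libraries (red, left) and the WT libraries (blue, right). Points are libraries and the black bars are the mean and SD of 3 libraries; the genotypes overlap for all 4 snoRNAs.

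Although they come from 1 host transcript, the 4 snoRNAs differed widely in level, by 125-fold to 199-fold per length between Snord34 and Snord35a. Dividing by length widens this gap, because Snord34 is 70 nt long and Snord35a 90 nt. Divided by length, Snord34 had 2939 ± 275 CPM per 100 nt in KO and 2895 ± 309 in WT libraries, Snord32a 1157 ± 52 and 1252 ± 138, Snord33 491 ± 70 and 522 ± 91, and Snord35a 17.4 ± 1.5 and 20.5 ± 4.2 (KO and WT, SD, n = 3 each). This order held in 6 of 6 libraries. Per length, the ratio of Snord34 to Snord32a was 2.17 to 2.75 over the libraries, that of Snord32a to Snord33 was 2.08 to 2.73, and that of Snord33 to Snord35a was 21.6 to 35.2. No step in the order therefore fell within the spread between libraries. Snord34 and Snord35a, the highest and the lowest, lie in adjacent introns. Snord32a and Snord35a end almost equally far from the 3′ splice site, and Snord34 ends nearest to it, at 63 bases. Whether position in the host plays a part in these levels was not tested. Ligation, reverse transcription and amplification can favour one small RNA over another, and their part in these ratios was not tested.

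**Figure D2:**
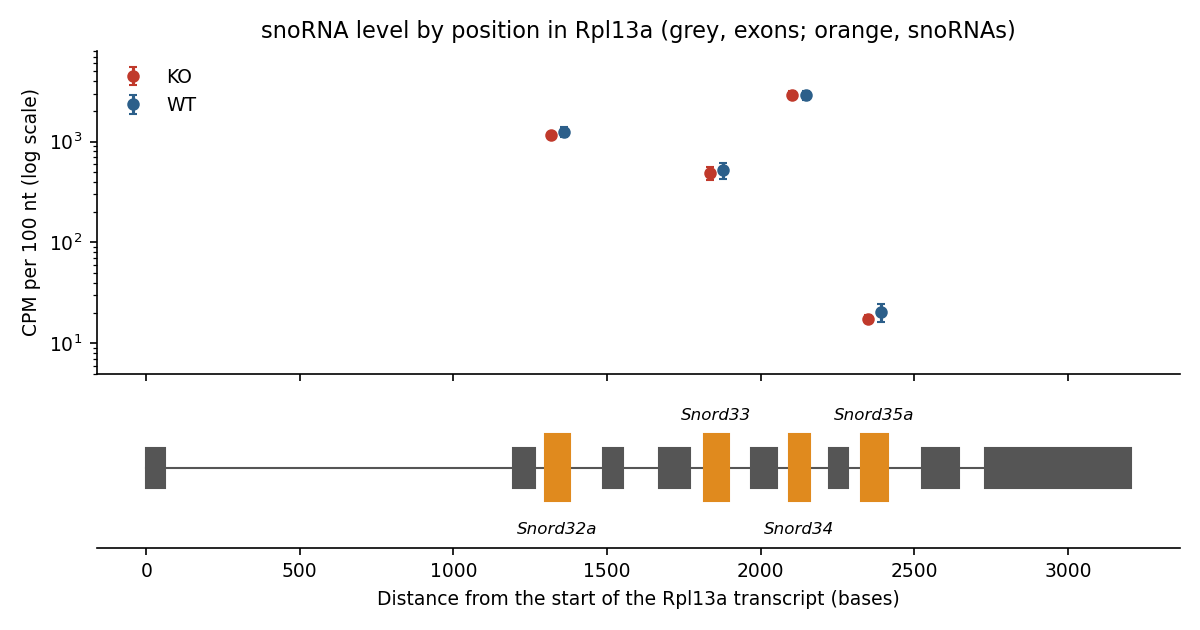
Upper panel, level per length (CPM per 100 nt, log scale; mean and SD of 3 KO libraries in red and 3 WT libraries in blue) of each snoRNA placed by its distance in bases from the start of the principal Rpl13a transcript. Lower panel, exons in grey and snoRNAs in orange; Snord34 and Snord35a lie in neighbouring introns and differ 125-fold to 199-fold per length over the 6 libraries.

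Among other ribosomal protein hosts the same ratio was smaller. Among 9 such hosts with at least 2 C/D-length snoRNAs averaging 1 CPM or more, the ratio of the highest to the lowest member per length was 154 in Rpl13a. It was 72.4 in Rps12, 70.8 in Rpl17 and 58.4 in Rpl4, and the lowest was Rps3a1 at 1.22. These are descriptive ratios of means over the 6 libraries, with no test. Among the 39 C/D-length snoRNAs of ribosomal protein genes, Snord34 ranked 12 or 13 by reads in a library, Snord32a 16 to 18, Snord33 21 or 22 and Snord35a 32 to 34.

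For none of the 4 snoRNAs was the difference between genotypes larger than the spread between libraries. The edgeR quasi-likelihood test called 0 of 4 at an adjusted p under 0.05, beside 1 of 624 features tested (0.16%), and 0 of 4 at an unadjusted p under 0.05, beside 6.41% of features. DESeq2 called 0 of 4 as well, beside 2 of 1816 features (0.11%), and 0 of 4 had an unadjusted p under 0.05, beside 2.97% of features, the lowest of the 4 being 0.259. All 4 passed the expression filter, with at least 714 reads in each library. The KO and WT ranges overlapped for all 4, where 15.2% of tested features had ranges that did not.

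The log2 fold change of KO over WT was 0.09 (SE 0.14, adjusted p = 0.838 by edgeR) for Snord34, with a 95% interval of -0.24 to 0.42. In fold terms the interval runs from 0.848 to 1.34, so a 2-fold change of Snord34 in either direction lies outside it. For Snord32a it was -0.05 (SE 0.14, adjusted p = 0.941 by edgeR), with an interval of -0.37 to 0.28, and for Snord33 it was -0.02 (SE 0.19, adjusted p = 0.980 by edgeR), with an interval of -0.48 to 0.44. Snord35a had the widest interval, -0.72 to 0.37 around -0.18 (SE 0.23, adjusted p = 0.819 by edgeR). The median over all 624 tested features was -0.08. The sign of the estimate depended on the scaling for Snord32a, Snord33 and Snord35a, and without WT replicate 1 the estimate for Snord35a was 0.085. Without KO replicate 2, the library that stood apart by RNA length, the estimates were 0.19 for Snord34, -0.0068 for Snord32a, 0.12 for Snord33 and -0.084 for Snord35a, and none was called. In bulk samples, fewer cells of a type and less RNA per cell cannot be told apart.

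**Figure D3:**
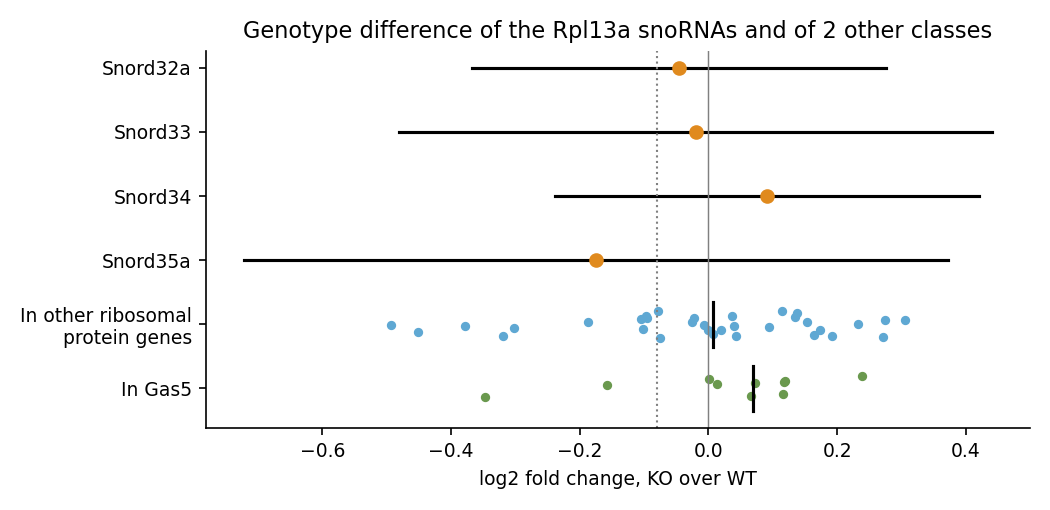
Log2 fold change of KO over WT for each Rpl13a snoRNA (orange points; lines are approximate 95% intervals from the edgeR fit), for 33 tested C/D-length snoRNAs of other ribosomal protein genes (light blue) and for 10 in Gas5 (green), with black ticks at the medians of 0.01 and 0.07. The grey line marks 0 and the dotted line the median of all tested features, -0.08; all 4 intervals include 0.

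Together the 4 held 0.308% to 0.378% of the counts of a library. Their sum was 3754, 3323 and 3259.5 CPM in the KO libraries, against 3711, 3077 and 3780.3 CPM in the WT libraries. Both genotypes hold high and low libraries. The means were 3446 ± 269 CPM in KO and 3523 ± 387 CPM in WT libraries (SD, n = 3 each), a log2 ratio of -0.03, and as a share of all C/D-length snoRNA reads the 4 took 0.347% to 0.402% in KO and 0.332% to 0.407% in WT libraries.

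The division of these reads among the 4 does not depend on how libraries are scaled. Snord34 held 60.7%, 58.8% and 59.5% of them in the KO libraries, against 59.0%, 57.9% and 55.8% in the WT libraries. The 2 ranges overlapped by a narrow margin, KO replicate 2 being just below WT replicate 1. Snord32a held 27.9% ± 1.8 in KO and 29.5% ± 1.4 in WT libraries, and Snord33 held 11.9% ± 0.9 and 12.4% ± 0.9 (KO and WT, SD, n = 3 each). The share of Snord35a was 0.392%, 0.450% and 0.529% in the KO libraries, against 0.609%, 0.570% and 0.403% in the WT libraries. With WT replicate 3 among the KO values, the ranges of Snord35a overlapped too. Exact 95% binomial intervals on the shares were narrow, 60.5% to 60.9% for Snord34 in KO replicate 1, so the differences between replicates were larger than the counting error of reads.

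**Figure D4:**
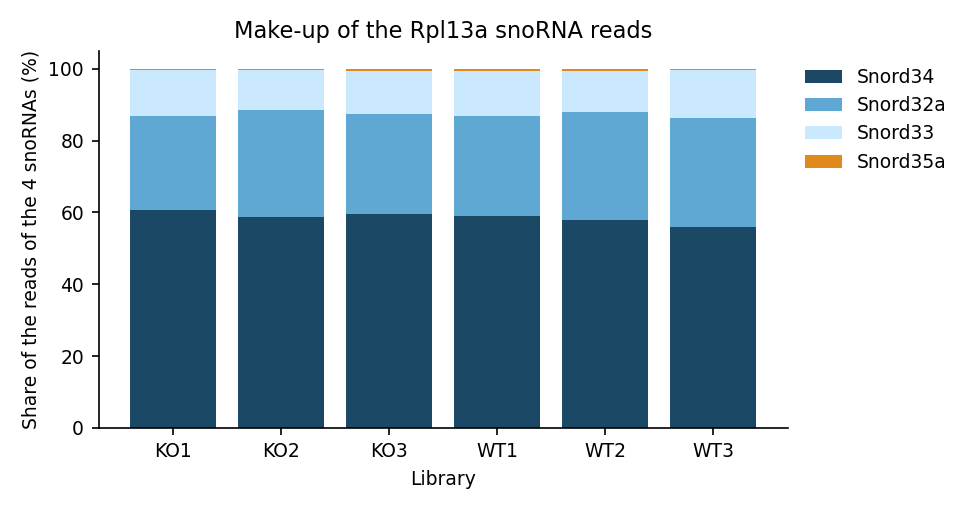
Share of the reads of the 4 Rpl13a snoRNAs held by each of them, as stacked bars in percent for the KO libraries (KO1, KO2 and KO3, left) and the WT libraries (WT1, WT2 and WT3, right). Snord34 holds 55.8% to 60.7% and Snord35a 0.392% to 0.609% in the 6 libraries.

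Across libraries Snord32a, Snord33 and Snord34 kept closer to one another than to Snord35a. The measure was the root mean square difference between log2 levels (TMM-scaled CPM), each centred on its own mean over the 6 libraries. It was 0.105 between Snord33 and Snord34, 0.112 between Snord32a and Snord34 and 0.133 between Snord32a and Snord33, against 0.242 to 0.288 between Snord35a and each of the other members. In WT replicate 1 the centred level of Snord35a was 0.38 while the others had 0.02 to 0.09, and in KO replicate 1 it was -0.11 while Snord33 and Snord34 had 0.26 and 0.25. Snord32a, at 0.06 in KO replicate 1, lay nearer to Snord35a than to Snord33 there, so the likeness over all 6 libraries did not hold in each one. All 4 come from the same libraries and share their depth and size selection, so these values describe likeness with no test.

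**Figure D5:**
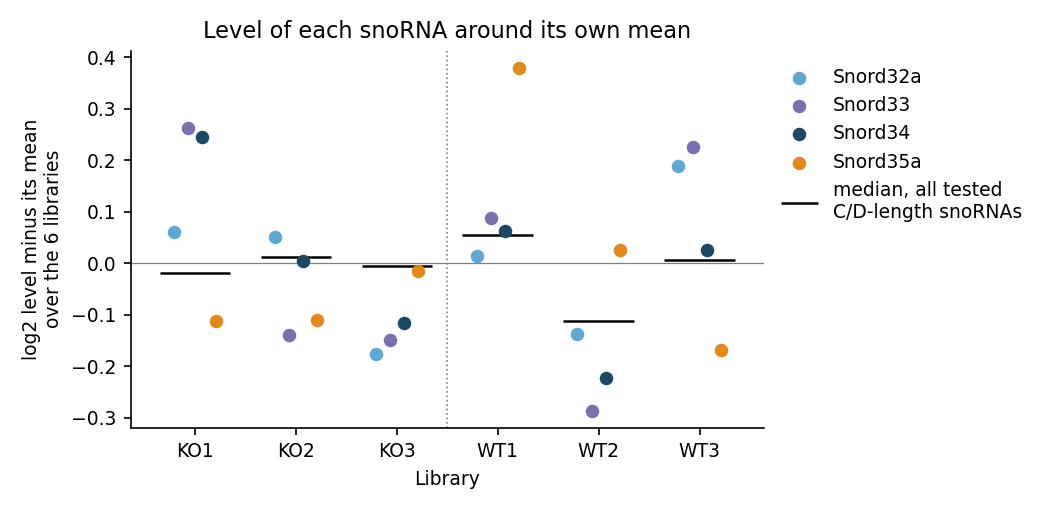
Level of each Rpl13a snoRNA in each library as log2 TMM-scaled CPM minus its mean over the 6 libraries, with KO libraries left and WT libraries right of the dotted line. Black bars are the median of all tested C/D-length snoRNAs, which lies between -0.11 and 0.05; Snord35a stands at 0.38 in WT replicate 1, apart from the other members.

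Pattern likeness to the summed members was measured in the same way for 144 tested C/D-length snoRNAs outside Rpl13a, for which the median root mean square difference was 0.226. Snord34 held 55.8% to 60.7% of the summed reads and Snord35a only 0.392% to 0.609%, so the sum says little about Snord35a. Among those with the smallest differences were Gm22858 in Wdr43 at 0.0832, Gm23650 in Nop56 at 0.0841, Gm24494 in Rabggtb at 0.0957 and Snord110 in Nop56 at 0.0991. Nop56 encodes a core protein of C/D snoRNA particles.

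The C/D-length snoRNAs of other ribosomal protein genes gave the setting for these values. Of 35 listed, 33 were tested, and none was called by edgeR over all features or by DESeq2. At an unadjusted p under 0.05 there was 1 of 33 by edgeR with TMM scaling, beside 40 of 624 features, and 1 of 35 by DESeq2, beside 54 of 1816. The edgeR count was 3 of 33 with RLE size factors, beside 47 of 624, and 8 of 33 with upper-quartile factors, beside 61 of 624. With TMM scaling 17 had higher and 16 lower estimates in KO libraries, with a median log2 fold change of 0.01, while with RLE size factors 27 were higher and 6 lower and with library size alone 12 were higher and 21 lower. The most abundant was Snord68 of Rpl13, with 66947 ± 11875 CPM in KO and 68367 ± 5397 CPM in WT libraries (SD, n = 3 each) and a log2 fold change of 0.04 (SE 0.14, adjusted p = 0.952 by edgeR). Next came Gm23301 of Rpl17, with 46235 ± 2329 CPM in KO and 41247 ± 1344 CPM in WT libraries (SD, n = 3 each) and a log2 fold change of 0.23 (SE 0.09, adjusted p = 0.710 by edgeR). In Gas5, a long non-coding host that like the ribosomal protein genes starts with a pyrimidine tract, 10 C/D-length snoRNAs were tested and none was called by edgeR or DESeq2. There 8 were higher and 2 lower with TMM scaling, with a median of 0.07, and also with RLE size factors. With upper-quartile factors and with DESeq2 9 were higher and 1 lower, and with library size alone 5 were higher and 5 lower. Over all tested features 255 were higher and 369 lower with TMM scaling. These counts were 327 and 297 with RLE size factors, 461 and 163 with upper-quartile factors and 223 and 401 with library size alone. The most abundant in Gas5, Gm26224, had 196097 ± 2868 CPM in KO and 174030 ± 5395 CPM in WT libraries (SD, n = 3 each). Its log2 fold change of 0.24 (SE 0.06, adjusted p = 0.542 by edgeR) was not called.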

How the data were processed

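Small RNA libraries were made from total RNA of bone marrow cells with a gel cut of 170 to 370 bp, adaptors included, per the labels' protocols. Trimmomatic 0.38, Bowtie2 2.3.4.1 and build GRCm38 are named per the submitters' processing notes. The sources used here do not give how reads were counted, on which strand, or the rule for multiple matches. Raw read counts per feature were deposited, 1 table per library with only features that had at least 1 read, and missing features were set to 0. Features were matched by position to GENCODE M21 (1822 of 1823). The last is the 45S pre-rRNA. Counts were tested with edgeR 4.0.16 (R 4.3.3): TMM, default filter (minimum count 10, minimum total 15), quasi-likelihood test of KO against WT, two-sided, Benjamini-Hochberg adjustment over 624 features. SEs are the log2 fold change over the square root of F, and the intervals built on them are approximate. DESeq2 1.42.0 was an alternative, with other scalings, filters, left-out libraries and a replicate block. No replicate pair differed by as little as sampling noise (chi-square per degree of freedom 530.3 to 3308). Members and lists were chosen with earlier results of these data known. Named features were the 4 members, up to 4 examples per list by mean level, and those of the 5 nearest in pattern that could be given. Some items are not reported here. The pairing search against rRNA and the 45S pre-rRNA were added after the data were seen.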

Additional observations from a re-analysis of the deposited data

How the results depend on the processing

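None of the 4 snoRNAs was called in any of 15 alternative fits, with adjusted p between 0.432 and 0.992. Snord34 kept a positive log2 fold change in all 15, from 0.02 to 0.45. The other 3 changed sign: Snord32a was 0.062 with RLE size factors, 0.34 with upper-quartile factors, 0.012 with no filter, 0.029 with at least 50 counts in 3 libraries, 0.029 with copies summed and 0.14 with DESeq2. Snord33 was 0.085, 0.33, 0.036, 0.053, 0.053 and 0.15 in the same 6 settings, and Snord35a was 0.19 with upper-quartile factors and 0.0055 with DESeq2. The 45S pre-rRNA was 0.00070 with upper-quartile factors. With 1 library left out, Snord32a ranged from -0.044 to 0.13, Snord33 from -0.076 to 0.18 and Snord35a from -0.20 to 0.085. Upper-quartile factors moved the median of all features to 0.27, against -0.08 with TMM, and relative to that median Snord34 was 0.18 and Snord32a 0.06 (log2).

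The number of features called was 13 with no filter, 2 with DESeq2 and 0 with the replicate block, and 0 to 1 with 1 library left out. It was 0 without KO replicate 3 and without any 1 of the WT libraries. The median of the other ribosomal protein gene snoRNAs was 0.11 with RLE, 0.37 with upper-quartile factors, 0.080 with at least 50 counts, 0.081 with copies summed and 0.17 with DESeq2, and 0.027 to 0.17 with 1 library left out. The cause of these shifts was not tested. Same-numbered libraries deviated together with r = -0.13, 0.40 and -0.36, so the numbers were not taken as pairs, and only the libraries numbered 2 correlated best with each other. With the replicate block Snord34 was 0.09, Snord32a -0.04, Snord33 -0.02 and Snord35a -0.16. The shares and the summed level stayed within 1 SD of their values in all alternatives run. Depth limits Snord35a most, with 714 to 1204 reads per library.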

Other observations

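The 45S pre-rRNA is the long transcript from which 18S and 28S rRNA, targets of such snoRNAs, are cut. The feature was chosen after its values were seen. It had 36987, 32555 and 38822 CPM in the KO libraries, against 48808, 50993 and 45937 CPM in the WT libraries. The genotypes did not overlap, as for 15.2% of tested features. Its log2 fold change was -0.36 (SE 0.08), with an unadjusted p of 0.00308 and an adjusted p of 0.542 by edgeR, so it was not called. The estimate was negative in 13 of the 14 alternatives run and 0.00070 with upper-quartile factors. Relative to the median of all tested features it was -0.27 with upper-quartile factors, against -0.28 with TMM scaling. These reads passed a size selection and need not measure the amount of precursor.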
